A study of Mus musculus with 71 samples.

Results

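The 85 genes described here encode the proteins of the cytosolic ribosome, and they were followed in ribosome-bound hippocampal mRNA of male wild-type C57BL/6J mice. They were the protein-coding rows of the count table whose symbols begin with Rpl or Rps and a number, or are Rplp0, Rplp1 or Rplp2, without the Rps6k kinases, names containing -ps and retrocopies. The rule named 86 of 57010 rows. Rpl10l had no count in any mouse and was left out, and the other 85 had at least 10 counts and were among 30141 genes tested. Of these, 50 belong to the large 60S subunit and 32 to the small 40S subunit. The symbol rule also took 3 that are set apart, Rps19bp1, which is a nucleolar partner of Rps19 and no ribosomal protein, Rpl7l1, which acts in the assembly of the large subunit, and Rps23rg1, a gene derived from Rps23.

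From weaning onwards the mice received normal chow ad libitum (NC ad lib), a high fat-high sucrose diet ad libitum (HFS ad lib), or the latter with access limited to the active phase in the last weeks, called time-restricted feeding (HFS TRF). The first experiment held 36 mice, 6 per diet left in the home cage and taken at zeitgeber time 3 (HC zt3) and 6 per diet taken 1 h after training in an object recognition memory task (ORM+1 h). The second experiment held 35 mice, 6 per diet at HC zt15 and 6 per diet taken 12 h after training (ORM+12 h), except that HFS TRF HC zt15 had 5. Where 3 values follow each other without a name, NC ad lib comes first, then HFS ad lib and last HFS TRF. Messenger RNA was purified with an antibody to phosphorylated ribosomal protein S6 (pS6-TRAP), which favours ribosomes of recently active cells, and RNA that was not purified was not analysed here. Values therefore combine how much of an mRNA a cell holds with how much of it sits on phosphorylated ribosomes, and in whole hippocampus fewer cells of a type and less RNA per cell cannot be told apart.

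Ribosomal proteins are made in near-equal amounts from genes scattered over the genome, and most of their mRNAs begin with a terminal oligopyrimidine (TOP) tract, a cytosine followed by a run of pyrimidines. Signalling through mTORC1 and the RNA-binding protein LARP1 sets how many ribosomes these TOP mRNAs hold, while S6 kinases in the same pathway phosphorylate Rps6, the protein used here as the handle of the purification. In neurons many ribosomal protein mRNAs are also found in dendrites and axons.

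The mouse start sites in RefSeq (GRCm38.p6) covered 64 of the 85 genes, and 13 of the 64 (20.3%) began with a C and at least 4 further C or T bases, against 397 of 13345 tested protein-coding genes with a start site (2.97%). The sequences below run from 30 bases before the first listed transcribed base to 20 bases into the transcript, with the pyrimidine run in capitals. They are shown for the antigen of the purification, a stalk protein and 4 members of these 64 that were higher at HC zt15 than at HC zt3, which belong to different experiments. The start sites of Rps29 and Rpl17 are not among the 64. A paralog of Rps27, Rps27l, is also shown, and neither of its 2 listed starts carried such a run. Rps27l was itself called higher at HC zt15 in NC ad lib (0.56) and HFS TRF (0.52 on the log2 scale), and each call was lost in a fit without a certain mouse. Whether such a run goes with a rise was not tested.
Rps6, chr4:86857348-86857397, minus strand: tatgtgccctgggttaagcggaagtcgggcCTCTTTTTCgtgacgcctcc
Rplp2, chr7:141447621-141447670, plus strand: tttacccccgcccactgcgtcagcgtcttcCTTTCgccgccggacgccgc
Rps27, chr3:90213629-90213678, minus strand: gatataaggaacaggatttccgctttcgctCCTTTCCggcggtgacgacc
Rps10, chr17:27635225-27635274, minus strand: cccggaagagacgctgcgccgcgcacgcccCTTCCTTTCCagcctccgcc
Rpl35, chr2:39005112-39005161, minus strand: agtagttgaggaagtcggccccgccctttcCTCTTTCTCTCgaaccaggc
Rps18, chr17:33955646-33955695, minus strand: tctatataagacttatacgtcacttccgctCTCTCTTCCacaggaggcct
Rps27l, chr9:66946056-66946105, plus strand: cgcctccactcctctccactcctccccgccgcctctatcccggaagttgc

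A listed start that lies a few bases off the used one hides the tract, so 13 of 64 describes these letters and not the number of TOP mRNAs. Within the window from 250 bases before to 50 bases after the start, read on both strands, the ETS core CCGGAA stood in 34 of the 64 promoters (53.1%, all genes 25.6%) and the YY1 core ATGGCG in 20 (31.2%, all genes 14.9%). The Sp1 core GGGCGG was as frequent as elsewhere, in 39 of 64 (60.9%) against 61.3%.

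Total counts per mouse lay between 34698914 and 62758570 (median 53999489). Summed counts of neuronal markers made up 1.12 to 1.52% of each library and those of endothelial markers at most 0.00160%, whereas choroid plexus markers varied from 0.00984 to 1.83% between mice. Astrocyte markers ranged from 0.0689 to 0.326%, and dentate gyrus and CA field markers from 0.0424 to 0.0683%. All mice of HC zt3 and ORM+1 h belong to the first experiment and all others to the second, and zeitgeber time can therefore not be told apart from the experiment. Counts on pseudogenes also differed between the experiments, as given beside the results they touch.

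The members were not equally abundant. Per kilobase of the canonical transcript, the median member stood at 95.2 CPM (counts scaled to the same library size), with 87.3 for the large and 124 for the small subunit. The 3 highest were Rps15, a protein of the small subunit head, at 503 CPM per kilobase, the stalk protein Rplp1 at 485 and Rpl4, which lines the peptide tunnel, at 349. At the other end were Rpl3l, the muscle form of Rpl3, at 0.280 CPM per kilobase, Rpl39l, the testis form of Rpl39, at 0.104, and Rps23rg1 at 0.0253. These 3 had 1502, 322 and 182 counts in all 71 mice together and were listed at 0 in 2, 30 and 31 mice, which leaves their fold changes uninformative at this depth. Canonical transcripts were 382 to 6111 bases long, and the long ones, such as Rpl37 at 6111 and Rps15a at 5182 bases, lower a level that is divided by length. All other 82 members exceeded 10 CPM on average, and 45 exceeded 100 CPM.

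Mice of the same group differed in the members jointly. After subtracting the group means, log2 CPM of the 82 members correlated with a median Pearson r of 0.64 over 3321 pairs, of which 99.6% were positive (71 mice, values of a pair from the same libraries). Within the first experiment the median r was 0.59 and within the second 0.68. The median was 0.44 for mitochondrial ribosomal proteins, 0.56 for nuclear subunits of oxidative phosphorylation and 0.16 for neuronal markers. Rpl32 followed the mean of the other members most closely (r = 0.95), then Rpl26 (0.93) and Rps3 (0.91). Least close were Rps27l (0.27), Rps4l (0.27), Rpl7l1 (0.47) and Rpl22l1 (0.48), which are paralogs of other members.

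The share of all counts that fell on the 85 genes gives the simplest view of the groups. The lowest, median and highest share of NC ad lib mice was 0.877, 0.902 and 0.953% at HC zt3 and 0.918, 0.963 and 1.05% at ORM+1 h. It was 0.936, 1.04 and 1.16% at HC zt15 and 0.913, 0.954 and 1.21% at ORM+12 h. HFS ad lib mice had 0.748, 0.837 and 0.942% at HC zt3 and 0.870, 0.923 and 1.07% at ORM+1 h. Their shares in the second experiment were 0.997, 1.02 and 1.14% at HC zt15 and 0.971, 1.03 and 1.22% at ORM+12 h. In HFS TRF mice, shares of 0.865, 0.903 and 1.01% at HC zt3 and 0.884, 0.922 and 0.979% at ORM+1 h stood against 1.08, 1.14 and 1.28% at HC zt15 and 1.07, 1.11 and 1.32% at ORM+12 h. The HFS TRF mice of HC zt15 lay above every HFS TRF mouse of HC zt3, as the HFS ad lib mice of HC zt15 lay above every HFS ad lib mouse of HC zt3, while in NC ad lib mice the ranges overlapped.

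**Figure D1:**
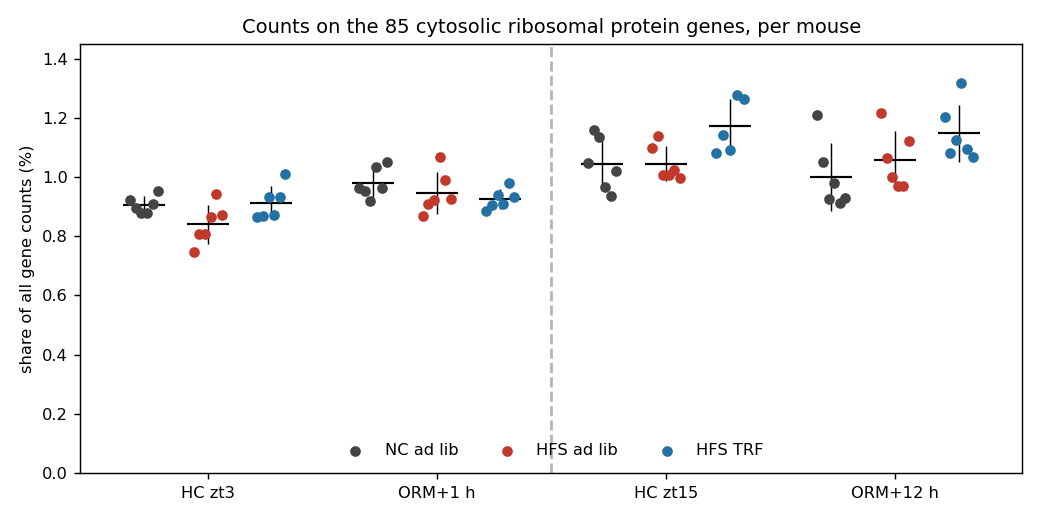
Each dot is a mouse, plotted by the share of its gene counts (%) that fell on the 85 cytosolic ribosomal protein genes. Horizontal lines are group means, vertical lines 1 SD, and the dashed line separates the first experiment (36 mice, 0.748 to 1.07%) from the second (35 mice, 0.913 to 1.32%).

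Home cage mice of the active and the resting phase were compared through HC zt15 and HC zt3, which also belong to different experiments. Most members were higher at zt15 in every diet. With edgeR's quasi-likelihood test and Benjamini-Hochberg adjustment over all genes, 46, 64 and 65 members were called higher and 3, 2 and 2 lower. Over all tested genes, 5.18, 3.88 and 5.95% were called higher and 6.54, 6.54 and 8.26% lower. The changes were moderate, with a median log2 fold change of 0.22, 0.37 and 0.37 over the members and of 0.00, -0.01 and 0.00 over all genes. Every mouse at zt15 lay above every mouse at zt3 for 35, 52 and 55 members (all genes 1.54, 1.24 and 3.1%), and every mouse lay below for 2, 1 and 2 (all genes 4.3, 3.6 and 6.44%). A set of 45 members was called higher in all 3 diets (1.51% of all genes) and 2 were called lower in all 3 (3.69% of all genes).

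Both subunits took part. Of the 32 small subunit genes, 24, 29 and 29 were called higher, with medians of 0.27, 0.40 and 0.42. Of the 50 large subunit genes, 22, 34 and 35 were called higher, with medians of 0.20, 0.34 and 0.34. Genes with a pyrimidine run at the listed start had medians of 0.35, 0.49 and 0.48, and the other matched genes of 0.21, 0.35 and 0.35. Across the 82 members above 10 CPM, the log2 fold changes of the diets went together (Pearson r = 0.91 for NC ad lib with HFS ad lib, 0.97 for HFS TRF with NC ad lib and 0.93 for HFS TRF with HFS ad lib), where each diet has its own mice but the experiments are shared.

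**Figure D2:**
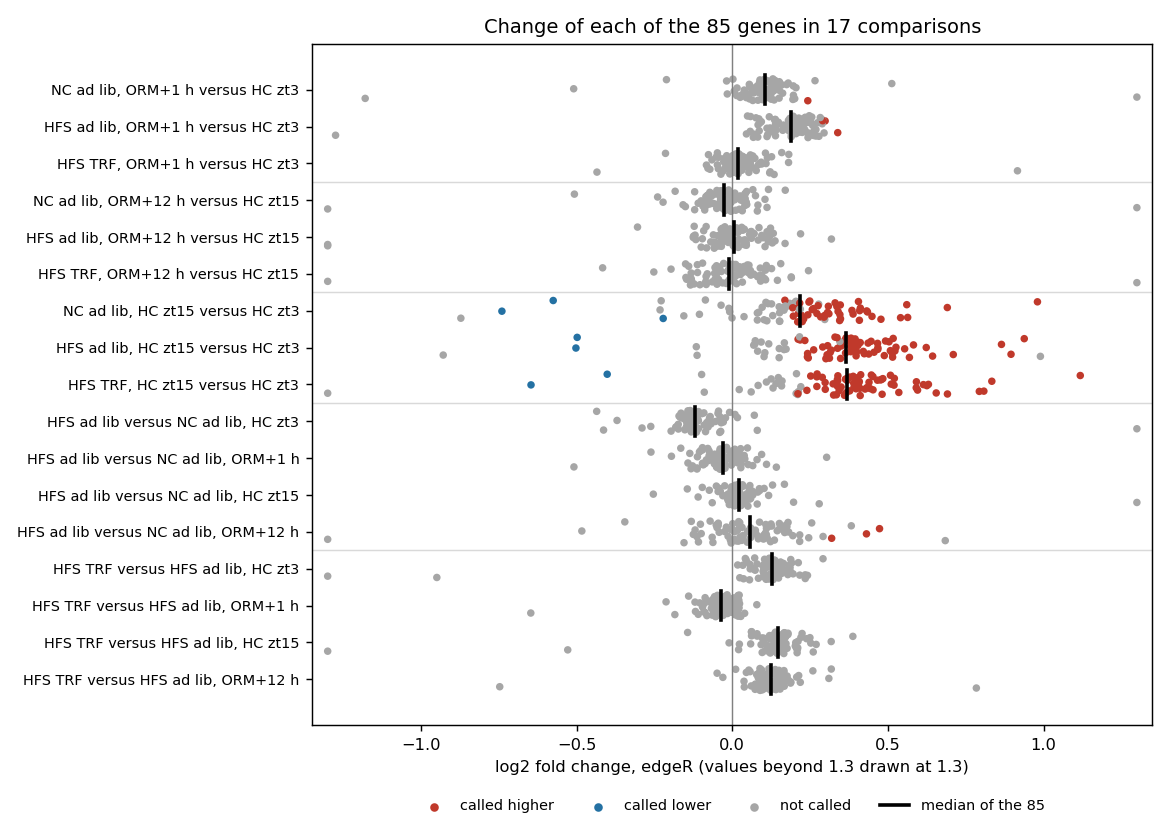
Dots are the log2 fold changes (edgeR) of the 85 genes in the 17 comparisons between groups, red where called higher, blue where called lower and grey where not called, and black bars are medians. In the 3 comparisons of HC zt15 with HC zt3, 46, 64 and 65 genes are red, and in the other 14 comparisons at most 3.

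The largest called rise was that of Rps27, a zinc finger protein of the small subunit. Its level in NC ad lib mice was 43.4 to 50.2 CPM (median 44.4) at HC zt3 and 76.8 to 114 CPM (median 86.4) at HC zt15. In HFS ad lib mice it went from 31.5 to 54.6 CPM (median 46.7) to 77.7 to 93.7 CPM (median 87.3). In HFS TRF mice, 40.2 to 54.2 CPM (median 46.0) at HC zt3 faced 91.6 to 111 CPM (median 100.4) at HC zt15. No mouse of one time reached the range of the other in any diet. The log2 fold changes were 0.98 ± 0.096, 0.94 ± 0.096 and 1.12 ± 0.0998 (SE), with adjusted p (edgeR) of 6.4e-13, 3.5e-12 and 1.7e-14.

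Next came Rps29 and Rps10, which sit in the head of the small subunit. Rps29 had medians of 82.7, 77.7 and 86.3 CPM at HC zt3 and of 132, 135 and 156 CPM at HC zt15, again without overlap within a diet. Its log2 fold changes were 0.69 ± 0.094, 0.86 ± 0.095 and 0.83 ± 0.098 (edgeR, adjusted p = 4.0e-08, 3.9e-11 and 5.2e-10). Rps10 had 12.9 to 14.6 CPM at HC zt3 and 16.4 to 22.8 CPM at HC zt15 in NC ad lib mice. HFS ad lib mice had 10.3 to 13.0 CPM and 18.3 to 22.7 CPM, and HFS TRF mice 11.5 to 15.5 CPM and 19.1 to 25.6 CPM. The log2 fold changes of Rps10 were 0.56 ± 0.090, 0.90 ± 0.090 and 0.81 ± 0.093 (edgeR, adjusted p = 2.0e-06, 1.9e-12 and 2.8e-10). Both rises were smaller when the gene was summed with its pseudogene copies, at 0.30, 0.47 and 0.44 for Rps29 and 0.30, 0.56 and 0.55 for Rps10, each still called.

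Rpl35, which lines the exit of the peptide tunnel, and Rps18, another head protein, were also among the members with the smallest adjusted p. Rpl35 medians were 65.5, 58.8 and 62.7 CPM at HC zt3 against 91.6, 94.0 and 106 CPM at HC zt15, with log2 fold changes of 0.54 ± 0.078, 0.71 ± 0.078 and 0.79 ± 0.082 (edgeR, adjusted p = 1.9e-07, 5.3e-11 and 4.5e-12). Rps18 medians were 79.3, 69.8 and 76.7 CPM against 109, 111 and 122 CPM, with log2 fold changes of 0.48 ± 0.072, 0.64 ± 0.072 and 0.66 ± 0.075 (edgeR, adjusted p = 5.8e-07, 9.9e-11 and 2.3e-10). When all 35 mice of the second experiment were set against all 36 of the first, whatever their diet and training, Rpl30, Rps7, Rps10 and Rps18 were higher in every mouse of the second (15 genes of 30141 in all, 0.0498%), and no member was lower in every mouse (1.4% of all genes).

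**Figure D3:**
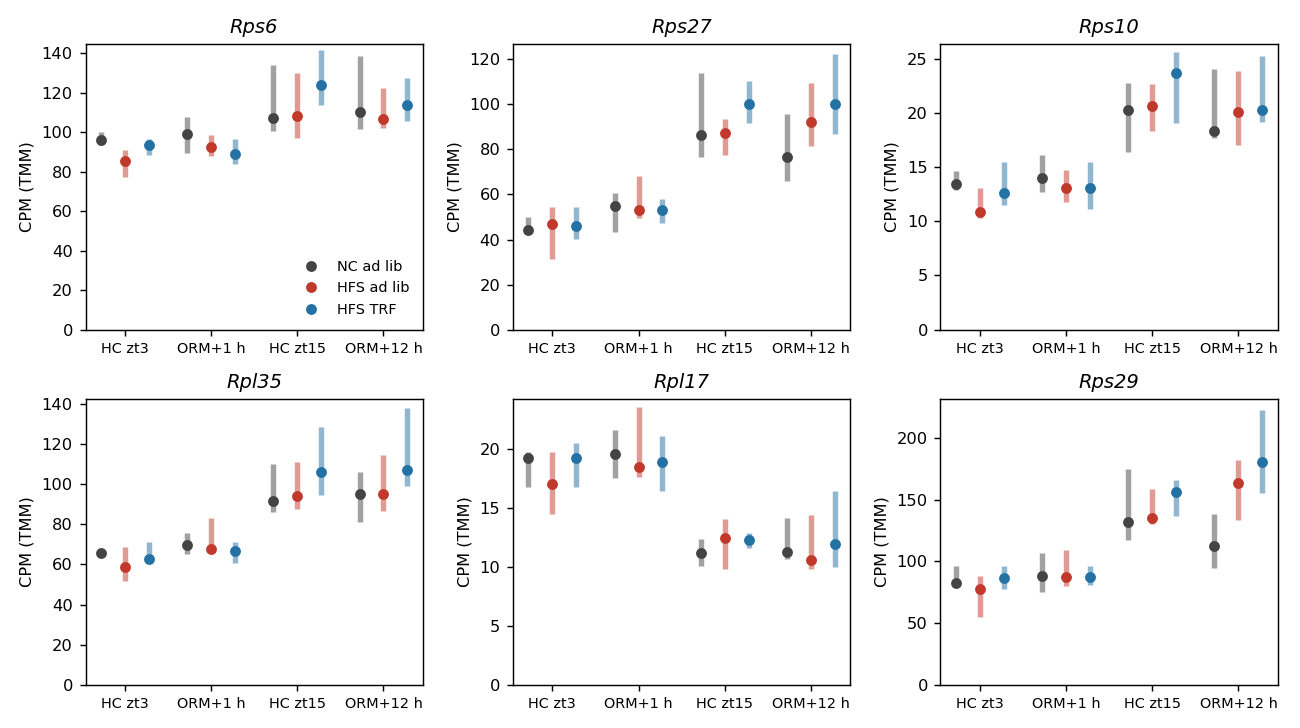
Levels of Rps6, Rps27, Rps10, Rpl35, Rpl17 and Rps29 in CPM after TMM scaling, by condition and diet, where dots are medians and bars run from the lowest to the highest mouse of a group. Rps27 stays at or below 68.2 CPM in the first experiment and at or above 66.2 CPM in the second, while medians of Rpl17 are lower in the second.

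Rps6, the protein that carries the phosphorylated epitope, changed less than these. It had in NC ad lib mice 93.8 to 100.1 CPM (median 95.9) at HC zt3 and 101 to 134 CPM (median 107) at HC zt15. HFS ad lib mice had 77.4 to 90.8 CPM (median 85.4) and at least 97.0 CPM (median 108), and HFS TRF mice 88.7 to 96.4 CPM (median 93.6) and 114 to 142 CPM (median 124). The times did not overlap within a diet. The log2 fold changes were 0.20 ± 0.065, 0.36 ± 0.065 and 0.45 ± 0.068 (edgeR, adjusted p = 0.035, 2.4e-05 and 5.2e-07). The NC ad lib call was lost in 6 of 12 fits that left out a mouse, with the highest adjusted p of 0.19 without replicate 2 of HC zt15.

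Acidic stalk proteins, which bring elongation factors to the ribosome, were called higher in all 3 diets. Rplp0 rose by 0.25, 0.39 and 0.34 on the log2 scale, Rplp1 by 0.35, 0.42 and 0.41, and Rplp2 by 0.35, 0.50 and 0.48 (edgeR, adjusted p from 0.0094 to 3.1e-07). Rpl5 and Rpl11, which travel with 5S RNA and bind the p53 regulator Mdm2 when ribosome assembly stalls, rose by 0.22, 0.22 and 0.27 and by 0.20, 0.36 and 0.39. Summed with pseudogene copies, Rpl5 was called in no diet (0.11, 0.14 and 0.18, edgeR, adjusted p = 0.24, 0.13 and 0.051). Rpl11 and Rplp0 then no longer passed in NC ad lib (0.12 and 0.19, edgeR, adjusted p = 0.23 and 0.075) but did in the other diets. Rps27a, which is made as a fusion with ubiquitin, was not called in any diet (-0.11 ± 0.080, 0.08 ± 0.080 and 0.13 ± 0.084).

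Paralogs did not always share the calls of their partner. Rpl3, a protein of the peptidyl transferase centre, was called higher in each diet (0.22, 0.35 and 0.36 on the log2 scale), and so were Rpl10 (0.21, 0.30 and 0.41), Rps4x (0.21, 0.32 and 0.35) and Rpl36a (0.43, 0.47 and 0.61). Rpl36al passed in HFS ad lib (0.38) and HFS TRF (0.45) but not in NC ad lib (0.20, adjusted p = 0.12). Rpl7 passed in HFS TRF (0.34) and was at 0.17 in both other diets, and Rpl7l1 passed in HFS ad lib (0.31) and HFS TRF (0.30). Rpl39 passed in HFS TRF (0.34). The RNA-binding protein Rpl22 and its partner Rpl22l1 were called in no diet (0.10, 0.07 and 0.16, and 0.10, 0.10 and 0.21). Rps27l rose in NC ad lib (0.56 ± 0.176, adjusted p = 0.025) and HFS TRF (0.52 ± 0.183, adjusted p = 0.043), and was at 0.35 ± 0.176 in HFS ad lib. Rps4l was called in HFS ad lib alone (0.34 ± 0.112, adjusted p = 0.040), and stood at -0.23 ± 0.112 on normal chow and -0.10 ± 0.117 in HFS TRF. Neither tested difference between the diets, HFS ad lib against each of the others, passed (edgeR, adjusted p of 0.40 and 0.46). Rps19bp1 was called in no diet (-0.09, 0.22 and 0.21). Leaving out replicate 2 of NC ad lib HC zt15 ended the NC ad lib calls of Rpl3, Rpl5, Rpl10, Rpl11, Rps4x and Rps27l (adjusted p from 0.11 to 0.16). Without replicate 2 of HFS ad lib HC zt15, Rpl5 (adjusted p = 0.084) and Rps4l (0.14) were lost on that diet. In HFS TRF, Rps27l (0.25) and Rpl7l1 (0.067) were lost without replicate 4 of HC zt15 and Rpl39 (0.062) without replicate 5.

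Rpl17 and Rpl23a, both at the peptide tunnel, were the members called lower in every diet. Rpl17 had 16.8 to 19.8 CPM (median 19.3) at HC zt3 and 10.1 to 12.4 CPM (median 11.2) at HC zt15 in NC ad lib mice. HFS ad lib mice had 14.5 to 19.7 CPM (median 17) and 9.85 to 14.1 CPM (median 12.4), and HFS TRF mice 16.8 to 20.5 CPM (median 19.3) and 11.6 to 12.9 CPM (median 12.3). The times were apart in each diet, and the log2 fold changes were -0.74 ± 0.094, -0.50 ± 0.093 and -0.65 ± 0.099 (edgeR, adjusted p = 4.1e-09, 4.9e-05 and 7.5e-07). Rpl23a went from medians of 38.7, 38.4 and 37.8 CPM to 25.1, 26.4 and 29.6 CPM, with an overlap between the times in HFS ad lib mice only. Its log2 fold changes were -0.58 ± 0.085, -0.50 ± 0.085 and -0.40 ± 0.089 (edgeR, adjusted p = 3.3e-07, 8.8e-06 and 0.00065). Rpl7a was lower in NC ad lib (-0.22 ± 0.071, adjusted p = 0.029), where the call was lost without replicate 6 of HC zt3 (adjusted p = 0.070), and stood at -0.11 and -0.09 in the other diets.

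Reads of ribosomal protein mRNAs can be shared with processed pseudogenes, and 1139 pseudogene rows matched a member transcript with at least 90% identity over at least 100 bases, for 79 of the 85 members. Rpl7a had 94 such copies, Rpl17 60 and Rpl23a 36. Copies held 66.2% of the counts of member and copies together for Rps10, 58.9% for Rpl24, 42.8% for Rpl17 and 31% for Rpl7a, but only 0.312% for Rps27 and 2.98% for Rpl35. Copies took 0.121 to 0.180% of counts (median 0.153) in the first experiment and 0.108 to 0.155% (median 0.126) in the second, and other pseudogenes 0.556 to 0.667% and 0.373 to 0.480% without overlap. At zt15, 377, 330 and 334 of 888 tested copies were called lower and 26, 38 and 35 higher, with medians of -1.83, -1.79 and -1.75. Among 3522 other pseudogenes, 878, 853 and 845 were called lower. Between groups of the same experiment at most 9 copies were called in either direction.

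When each member was summed with its copies, 25, 56 and 58 were called higher at zt15 and 4, 3 and 3 lower, with medians of 0.15, 0.31 and 0.31 (all 29253 genes of this fit called higher 4.76, 3.32 and 5.5%, lower 5.5, 5.46 and 7.62%). Of the members called from their own rows, 26, 57 and 58 were called in both fits, and Rpl29 turned direction in HFS ad lib, from 0.35 to -0.01 (adjusted p = 1.0). Rps27 was nearly unmoved (0.96, 0.92 and 1.10 on the log2 scale), as was Rpl35 (0.48, 0.65 and 0.74). Rps6 no longer passed in NC ad lib (0.15, adjusted p = 0.13). Among the paralogs, the NC ad lib calls of Rpl3, Rpl10 and Rps4x were lost (edgeR, adjusted p = 0.24, 0.14 and 0.11). Rpl36al (0.11) and Rps4l (0.053) were lost in HFS ad lib, and Rpl39 (0.12) and Rps27l (0.070) in HFS TRF. The other calls given for the paralogs stayed. Rpl17 fell further (-1.22, -0.96 and -1.12), and Rpl7a was then lower in all 3 diets (-0.63, -0.54 and -0.49). The part of the pseudogene shift in the members' own changes was not tested.

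**Figure D4:**
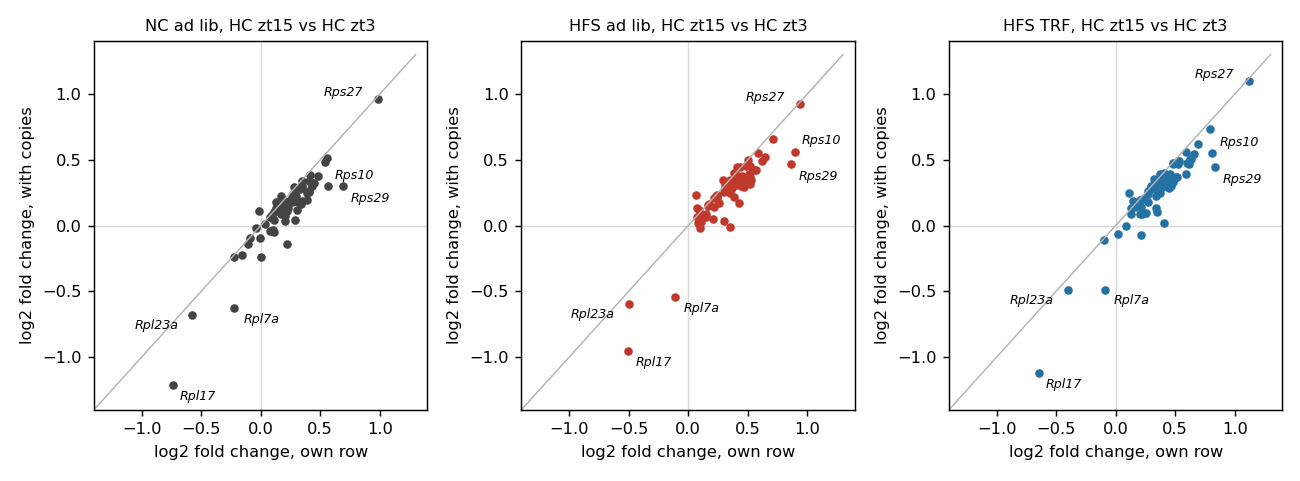
For 82 genes, without the 3 below 1 CPM, the log2 fold change of HC zt15 versus HC zt3 from the gene's own row (horizontal) is plotted against that of the gene summed with its pseudogene copies (vertical), 1 panel per diet. The grey diagonal marks equal values, with Rps27 close to it and Rpl17, Rpl7a, Rps10 and Rps29 below it.

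Genes of related function were read in the same fit. Of 16 other translation genes known for TOP mRNAs, 8, 9 and 9 were called higher at zt15 and none lower (medians 0.21, 0.26 and 0.25), among them the elongation factor Eef1a1 (0.32, 0.36 and 0.41) and the TOP gene Tpt1 (0.33, 0.37 and 0.50). Eef2, which moves the ribosome along the mRNA, was not called (0.20, 0.19 and -0.08). Among ribosome components with other symbols, Fau, the fusion that yields a small subunit protein, was called higher by 0.43, 0.45 and 0.51. Rpsa was called higher in each diet (0.29, 0.34 and 0.25) and Rack1 in HFS ad lib (0.21).

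Mitochondrial ribosomal proteins, which make no cytosolic ribosome, were called higher in 1, 4 and 13 of 78 and lower in 2, 0 and 0 (medians -0.03, 0.07 and 0.13). Nuclear subunits of oxidative phosphorylation were called higher in 6, 25 and 45 of 87 and lower in 1, 2 and 4 (medians 0.10, 0.19 and 0.25). Factors of ribosome biogenesis did not move in that direction, with 0, 1 and 0 of 30 called higher and 2, 2 and 4 lower. In the list of mTORC1, S6 kinase and LARP1 genes, 4, 4 and 3 of 19 were called higher and 0, 1 and 2 lower. Larp1 itself was called higher in NC ad lib (0.25) and HFS ad lib (0.27), and Mtor was called lower in HFS ad lib (-0.34) and HFS TRF (-0.26). Other short protein-coding genes, up to 1000 bases of exon, had medians of 0.00 in each diet, with 10, 15 and 26 of 389 called higher and 20, 18 and 17 lower.

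Markers of astrocytes were also higher at HC zt15 than at HC zt3. All 7 were above 0 in each diet and 7, 2 and 6 were called higher (the lowest median 0.61, in HFS ad lib). Their summed share went from 0.0897 to 0.117% at HC zt3 to 0.102 to 0.288% at HC zt15 on normal chow. It went from 0.0733 to 0.231% to 0.144 to 0.285% in HFS ad lib mice and from 0.0689 to 0.161% to 0.187 to 0.281% in HFS TRF mice. Of the 8 neuronal markers, Neurod6 was called lower in NC ad lib and Gad2 higher in HFS ad lib. Microglial markers were called higher in 3 of 6 in HFS ad lib (Tmem119, Csf1r and C1qa) and in none of 6 elsewhere, and of 4 oligodendrocyte precursor markers Gpr17 was called higher in each diet. Myelinating oligodendrocyte markers had 1 call in each direction in HFS TRF (Mobp higher, Opalin lower), endothelial markers 1 higher in HFS ad lib (Ly6c1), and choroid plexus markers none in any diet (medians 1.53, -0.30 and 0.84). Of the 4 dentate and CA field markers, Prox1 and Zbtb20 were called higher in NC ad lib, and Fibcd1 was called lower in each diet. The part of these cell types in the members' changes was not tested.

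Training was compared with home cage mice of the same experiment. At ORM+1 h the members lay slightly above HC zt3 in both ad libitum diets, and few passed the test. Normal chow gave 1 call with edgeR, Rpl10, a late-joining protein of the large subunit (all genes called higher 4.03%). It had 91.2 to 103 CPM (median 97.4) at HC zt3 and 101 to 132 CPM (median 113) at ORM+1 h, with overlapping ranges and a log2 fold change of 0.24 ± 0.069 (edgeR, adjusted p = 0.020). The median over members was 0.11, and 80 of 85 were above 0 (47.8% of all genes). An unadjusted p under 0.05 was found for 16 members (18.5% of all genes). Members varied together within groups, so such counts, here and in the comparisons that follow, are not of independent changes. Trained mice all lay above home cage mice for 3 members, Rps15a, Rps20 and Rpl32 (all genes 3.19%). DESeq2 called 2 members and a fit of only the groups compared 5. The call was lost without replicate 3 of HC zt3, or replicate 4 or 6 of ORM+1 h, while 2 members were called without replicate 3 or 5 of ORM+1 h and 3 without replicate 6 of HC zt3. Astrocyte markers were called higher in 7 of 7 in the same comparison (median 1.27; summed share 0.0897 to 0.117% and 0.199 to 0.326%), and their part in the result was not tested.

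In HFS ad lib mice 3 members were called higher (all genes 0.74%). The median was 0.19, and 84 of 85 were above 0 (48.8% of all genes). An unadjusted p under 0.05 was found for 56 members (13.8% of all genes), which again are not independent of each other. Rpl34 had 51.4 to 64.96 CPM (median 59.7) at HC zt3 and 65.4 to 83.1 CPM (median 71.7) at ORM+1 h. Rplp2 had 89.0 to 121 CPM (median 109) and 119 to 152 CPM (median 128), and Rpl21 had 53.6 to 84.5 CPM (median 78.3) and 85.7 to 103 CPM (median 92.8). Trained and home cage mice were apart for Rpl34 and Rpl21 and overlapped for Rplp2, and with Rpl18 3 members in all were apart (all genes 0.819%). The log2 fold changes were 0.30 ± 0.076, 0.29 ± 0.074 and 0.34 ± 0.094 (edgeR, adjusted p = 0.025, 0.026 and 0.047). DESeq2 called 18 members, a stricter filter on low counts 9, and a fit of only the groups compared 0.

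Single mice decided that count. It fell to 0 without HC zt3 replicate 1 or 2 or ORM+1 h replicate 4 or 5, and to 1 without replicate 3 of either group. It rose to 18 without HC zt3 replicate 5, to 11 without ORM+1 h replicate 1 and to 6 without HC zt3 replicate 6. The same HC zt3 mice enter the diet comparisons, where no member was called. There the members were lower than in NC ad lib mice (median -0.12, 80 of 85 below 0, all genes 50.1% above 0). In HFS TRF mice 83 of 85 members were higher (median 0.13, all genes 48% above 0). No astrocyte marker was called at ORM+1 h in HFS ad lib mice (median 0.54).

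HFS TRF mice had no member called at ORM+1 h by edgeR or DESeq2 (all genes called 2.87%), with a median of 0.02. An unadjusted p under 0.05 was found for 1 member, against 14.4% of all genes. The smallest p in each direction belonged to Rps19bp1 (0.16 ± 0.075, adjusted p = 0.32) and Rps4l (-0.21 ± 0.112, adjusted p = 0.38). Rps6 was at 0.03, 0.12 and -0.04, not called in any diet. Whether the early change differed between diets was tested as a difference of changes. With edgeR and DESeq2, 0 of 85 members passed for HFS ad lib versus NC ad lib and 0 of 85 for HFS TRF versus HFS ad lib. All genes called were 0% in both after adjustment. An unadjusted p under 0.05 was found for 1 member in the first, against 6.25% of all genes, and for 11 members in the second. The median difference of changes was 0.08 for the first and -0.16 for the second. Rpl38 was at 0.21 (95% interval 0.01 to 0.41) and at -0.30 (-0.50 to -0.09). These intervals are not adjusted for its choice among 85 members, and Rpl38 passed neither test after adjustment.

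At ORM+12 h no member was called against HC zt15 in any diet with edgeR (all genes called 0.209, 0.179 and 2.46%). Unadjusted p under 0.05 numbered 3, 3 and 8 of 85, against 16.8, 17 and 21.5% of all genes. DESeq2 called 0, 1 and 1, and the medians were -0.03, 0.01 and -0.01. Rps27l had the smallest p in NC ad lib mice, at 10.8 to 17.9 CPM at HC zt15 and 7.59 to 12.4 CPM at ORM+12 h (-0.51 ± 0.176, adjusted p = 0.18). In HFS ad lib mice it was Rpl41, the shortest ribosomal protein, with 138 to 177 CPM and 172 to 224 CPM (0.32 ± 0.092, adjusted p = 0.11), and, downwards, Rps4l (-0.30 ± 0.112, adjusted p = 0.20). In HFS TRF mice Rps29 stood at 0.24 ± 0.099 (adjusted p = 0.14) and Rpl7l1 at -0.25 ± 0.081 (adjusted p = 0.067). Rps6 was at 0.04, -0.01 and -0.15.

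Diets were compared within each condition. For HFS ad lib against NC ad lib no member was called at HC zt3, ORM+1 h or HC zt15 with edgeR or DESeq2. With edgeR, 0, 0 and 0.063% of all genes were called, and the medians over the members were -0.12, -0.03 and 0.02. An unadjusted p under 0.05 was found for 17 members at HC zt3, against 8.38% of all genes. At ORM+1 h it was found for 1 member, against 9.56% of all genes. At HC zt15 2 members had such a p, again a smaller share than among all genes. At HC zt3 Rps4l had the smallest p, -0.44 ± 0.112 (adjusted p = 0.59), with 53.4 to 64.4 CPM in NC ad lib and 36.5 to 52.6 CPM in HFS ad lib mice, which did not overlap. Rps6 (-0.18 ± 0.065, adjusted p = 0.59) and Rpl27 were the other members without overlap there (3 of 85, all genes 0.561%). At ORM+1 h Rpl7l1 (-0.20, adjusted p = 0.50) and at HC zt15 Rpl13a (0.20, adjusted p = 0.34) had the smallest.

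At ORM+12 h 3 members were higher in HFS ad lib than in NC ad lib mice (all genes called higher 0.763%). Rps29 had 94.6 to 139 CPM (median 113) in NC ad lib and 134 to 182 CPM (median 164) in HFS ad lib mice, a log2 fold change of 0.47 ± 0.094 (edgeR, adjusted p = 0.0073). Rpl41 had 120.3 to 175 CPM (median 143) and 172 to 224 CPM (median 190.0), a log2 fold change of 0.43 ± 0.092 (edgeR, adjusted p = 0.011). Rps28, a small protein of the 40S head, had 52.6 to 73.4 CPM (median 56.9) and 64.7 to 86.4 CPM (median 75.2), a log2 fold change of 0.32 ± 0.089 (edgeR, adjusted p = 0.040). Each pair of ranges overlapped. A fit of only the groups compared called none of the 3, DESeq2 called 6 members and a stricter filter on low counts 5. Rps29 and Rpl41 passed whichever mouse was left out of the fit of all groups, and Rps28 was lost in 9 of 12 such fits. The number called was 8 without NC ad lib replicate 1, 5 without NC ad lib replicate 2 and 6 without HFS ad lib replicate 4. Over all members the median was 0.06. The change from HC zt15 to ORM+12 h differed between these diets by 0.54 ± 0.130 for Rpl41 (edgeR, adjusted p = 0.059) and by 0.46 ± 0.133 for Rps29 (edgeR, adjusted p = 0.079). With edgeR no member passed the test of the difference (all genes 0.106% after adjustment), whereas DESeq2 called 2. Before adjustment, 10 members had p under 0.05, which is not comparable with the 0.106%.

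Under time-restricted feeding the members lay slightly above HFS ad lib in 3 of 4 conditions, without a call in any (edgeR and DESeq2, 0 of 85 each; all genes called at most 0.00664%). The medians were 0.13 at HC zt3, -0.03 at ORM+1 h, 0.15 at HC zt15 and 0.12 at ORM+12 h. Of the 85 members, 83, 23, 81 and 82 were above 0, against 48, 45.6, 47.1 and 47% of all genes. An unadjusted p under 0.05 was found for 26, 1, 38 and 25, against 5.89, 6.54, 15.6 and 12.3% of all genes. Since mice of a group differed in the members jointly, these are not counts of independent changes. The smallest p belonged to Rpl18 at HC zt3 (0.19 ± 0.068, adjusted p = 0.85), Rpl39 at ORM+1 h (-0.21 ± 0.095, adjusted p = 0.76), Rpl7 at HC zt15 (0.25 ± 0.075, adjusted p = 0.19) and Rpl23a at ORM+12 h (0.32 ± 0.085, adjusted p = 0.33). Rps6 was at 0.12, -0.04, 0.21 and 0.08. For HC zt15 versus HC zt3, the difference of changes had a median of 0.14 for HFS ad lib against NC ad lib and of 0.02 between HFS TRF and HFS ad lib. No member was called by edgeR or DESeq2 (all genes called 0% in both). Before adjustment, 9 and 1 members had p under 0.05, which is not comparable with that 0%. For ORM+12 h between HFS TRF and HFS ad lib the median was -0.02, with no member called by either tool (all genes called 0%). There, 1 member had p under 0.05 before adjustment.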

How the data were processed

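Hippocampal mRNA of 71 mice was purified by pS6-TRAP and sequenced with a stranded kit. The deposited values are raw counts per gene, which the authors made with Trim Galore 0.6.7, cutadapt 3.4, HISAT2 2.2.0 and featureCounts of Subread 2.0.3. The submitters' processing notes list GRCm39 and mm9 without roles, and the strand setting and annotation release of the counting are not given in the sources used here, so that members and overlapping or antisense genes may share reads. 1 column of per-sample values without a sample here was not used. Gene identifiers were matched to GENCODE (56310 of 57010 rows).

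From these counts, levels were taken as TMM-scaled CPM, and changes were tested with edgeR 4.0.16 (quasi-likelihood, limma 3.58.1, R 4.3.3) in 1 model of 12 groups over 30141 genes with at least 10 counts and adjusted by Benjamini-Hochberg over all genes in each of 23 comparisons (17 between groups, 6 differences of changes) at 0.05. SE is the log2 fold change over the root of F, and a 95% interval is 1.96 SE to either side. A DESeq2 1.42.0 Wald test, its size factors, TMM without the members, other filters, only the groups compared, a replicate block and leaving out each mouse were alternatives, and the sum with pseudogene copies was chosen after seeing the data. The fits were tested on simulated counts. For NC ad lib, ORM+1 h versus HC zt3, 23 of 100 genes changed by 0.3 on the log2 scale were recovered. Of 100 genes changed by 1, 94 were recovered, with 5 false calls among unchanged genes. A member that was not called can therefore still have changed by a small amount. Cages are not in the labels, so p-values treat mice as independent. Replicate numbers did not pair the mice.

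Members and gene lists were chosen with earlier results of these data known. Named genes were drawn from Rps6, the stalk, the 5S pair, Rps27a, the paralog pairs and Rps19bp1, the 3 members with the smallest adjusted p called in each direction of a comparison or, where none was called, that with the smallest p, and the 3 highest and lowest per length. Rpl30, Rps7, Rpl24, Rpl32, Rpl26, Rps3, Rpl37, Rps15a, Rps20 and Rpl27 and the genes of other lists were named after their values were seen. Promoter and start sequences are RefSeq's (GRCm38.p6). One gene of the lists is not reported here.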

Additional observations from a re-analysis of the deposited data

Results flagged for a closer look

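In each group of 6 mice (5 for HFS TRF HC zt15), the highest and lowest value of 18 members and of 2 summed shares was set against Dixon's 95% limit. Of 240 such groups 18 had a mouse apart, where chance gives about 1 in 20. In NC ad lib mice at HC zt3 these were replicate 1 for Rps27 (50.2 CPM, next 45.8) and Rps28 (61.8 CPM) and replicate 4, the lowest, for Rpl21 (54.7 CPM, next 79.5). At ORM+1 h on the same diet replicate 5 was lowest for Rpl21 (57.5 CPM, next 83.2) and highest for Rps4l (63.3 CPM). Replicate 2 of NC ad lib HC zt15 was highest for Rps6 (134 CPM), and replicate 1 of NC ad lib ORM+12 h for Rps18 (127 CPM), Rpl17 (14.2 CPM) and Rpl34 (75.5 CPM). In HFS ad lib mice replicate 4 of HC zt3 was apart for Rps10 (13.0 CPM), and replicate 4 of ORM+1 h for Rps27 (68.2 CPM), Rps29 (109 CPM) and Rpl35 (83.0 CPM). Replicate 2 of HFS ad lib HC zt15 was apart for Rpl10 (141 CPM), replicate 3 for Rps27l (16.3 CPM), and replicate 1 of HFS ad lib ORM+12 h for Rpl17 (14.4 CPM). In HFS TRF mice replicate 6 of HC zt3 was apart for Rpl23a (42.6 CPM) and replicate 5 of ORM+1 h for Rpl22 (108 CPM).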

How the results depend on the processing

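The median change of the members kept within 1 SD between mice under every alternative run, and the numbers called at HC zt15 stayed within 1.5 times except in NC ad lib mice summed with their copies (29, chosen after seeing the data). Leaving out a mouse gave 37 to 54, 61 to 68 and 60 to 69 calls there, in the order of the diets used above. Small counts moved more. At ORM+1 h in NC ad lib DESeq2 called 2 members and a fit of only the groups compared 5, with 0 to 3 when a mouse was left out. In HFS ad lib DESeq2 called 18, the stricter filter 9 and only the groups compared 0, with 0 to 18 when a mouse was left out. At ORM+12 h DESeq2 called 1 in HFS ad lib and 1 in mice under time-restricted feeding, each with 0 to 1 when a mouse was left out. HFS ad lib versus NC ad lib at ORM+12 h had 6 with DESeq2, 5 with the stricter filter and 0 with only the groups compared (2 to 8). The difference between these diets in the change to ORM+12 h had 2 with DESeq2, 1 with the stricter filter and 1 with the replicate block (0 to 2). The cause was not tested. The block otherwise kept every count within 1.5 times (49, 67 and 68 at HC zt15), and same-numbered mice did not deviate together throughout, since no comparison had every pair over 0.1. No scaling moved the median of all genes by more than 0.1. The SE of a typical member was 0.074 in both ad libitum diets, and how large a change was called differed between comparisons, since Rpl23a at 0.32 was not called between HFS TRF and HFS ad lib at ORM+12 h whereas Rps6 at 0.20 was called at HC zt15 in NC ad lib.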
